A study of Arabidopsis thaliana with 3 samples.

Results

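The ERF/AP2 and MYB transcription factors were followed in whole seedlings of Arabidopsis thaliana in 2 mutants of nuclear proteins. A gene was a member when its description in either of the authors' deposited tables named the ERF/AP2 family, an ethylene response factor, an ethylene-responsive element, DREB, a MYB domain, a MYB-like protein or a MYB transcription factor. Of 2666 genes in the authors' deposited tables, 30 were members. The glucosinolate regulators MYB28 and MYB29, the anthocyanin regulator PAP1 and the clock genes LHY, CCA1 and LUX, 6 genes in all, were left out by rule. By their descriptions, 17 of the 30 members encode ERF/AP2 proteins and 9 encode MYB or MYB-related proteins. The other 4 matched by wording only, and were HSFA3, EMB2746, AT1G31310 and ALY1.

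The wild type Col-0 was compared with pwo1 mutants and with crwn1 crwn2 double mutants, all sampled as whole seedlings at 14 days after stratification for 2 days and growth upright on MS medium in long days. PWO1 carries a PWWP domain and works with the Polycomb repressors, while CRWN1 and CRWN2 build the lamina-like layer under the plant nuclear envelope. The sources used here name no alleles, and all organs were sampled together, so a change in a regulator could not be assigned to a tissue. By the design text there were 3 biological replicates of each genotype. The sample records hold 1 entry per genotype, so they do not show the replicates separately. The values are the authors' fold changes and p-values by edgeR and Cuffdiff, with no value per library. Neither depth nor the spread between replicates was therefore analysed here. In whole seedlings, fewer cells of a type and less RNA per cell cannot be told apart.

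A gene was listed by the authors only where both tools gave it a small p-value, with a largest edgeR p of 0.00386 in the authors' deposited table for pwo1 and 0.00585 in that for crwn1 crwn2. The call used here is this listing. A gene that was not listed is not shown to be unchanged. Fold changes are the mutant over Col-0, and a positive log2 value means more transcript in the mutant. In the authors' deposited table CRWN1 and CRWN2 were at -3.03 and -2.42 in crwn1 crwn2, which checks the sign there. PWO1 was not listed for pwo1, so the sign could not be checked there. The column heading reads Col vs pwo1 and does not say which genotype is the numerator. Each direction given for pwo1 assumes the order checked in crwn1 crwn2, whose heading has the same form.

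ERF/AP2 proteins share a DNA-binding domain. Their DREB branch binds the dehydration-responsive element, with the core CCGAC, and is best known for responses to cold, drought and heat. Their ERF branch binds the GCC box, GCCGCC, and links ethylene, jasmonate, wounding and defence to transcription. MYB proteins bind DNA through imperfect repeats. The R2R3 type controls metabolism, stress responses and cell fate, and smaller MYB-related proteins act in the circadian clock, in trichome patterning and in early growth.

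In pwo1, 16 members were listed, and the families parted by direction. All 9 listed ERF/AP2 members were higher, at a median log2 value of 1.28 by the authors' deposited table, and all 4 listed MYB members were lower, with a median of -0.98. Among all 1239 genes listed for pwo1, 42.5% were higher, 57.5% were lower and the median was -0.53 in the authors' deposited table. Of the 16 members, 11 changed by at least 2-fold, against 34.7% of all listed genes. No test of the members as a list was made, since they were chosen with results of these data known. Both directions held only for the matched wording. RAP2.7, SNZ and TOE3, AP2-type genes whose descriptions use other words, were lower in pwo1. The MYB family gene RVE2 was higher there, as given in the closing observations. The MYB direction also rests on how members were sorted. AT1G31310 and EMB2746, annotated with a MYB-like domain but counted as matched by wording only, were higher, at 1.01 and 0.72.

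**Figure D1:**
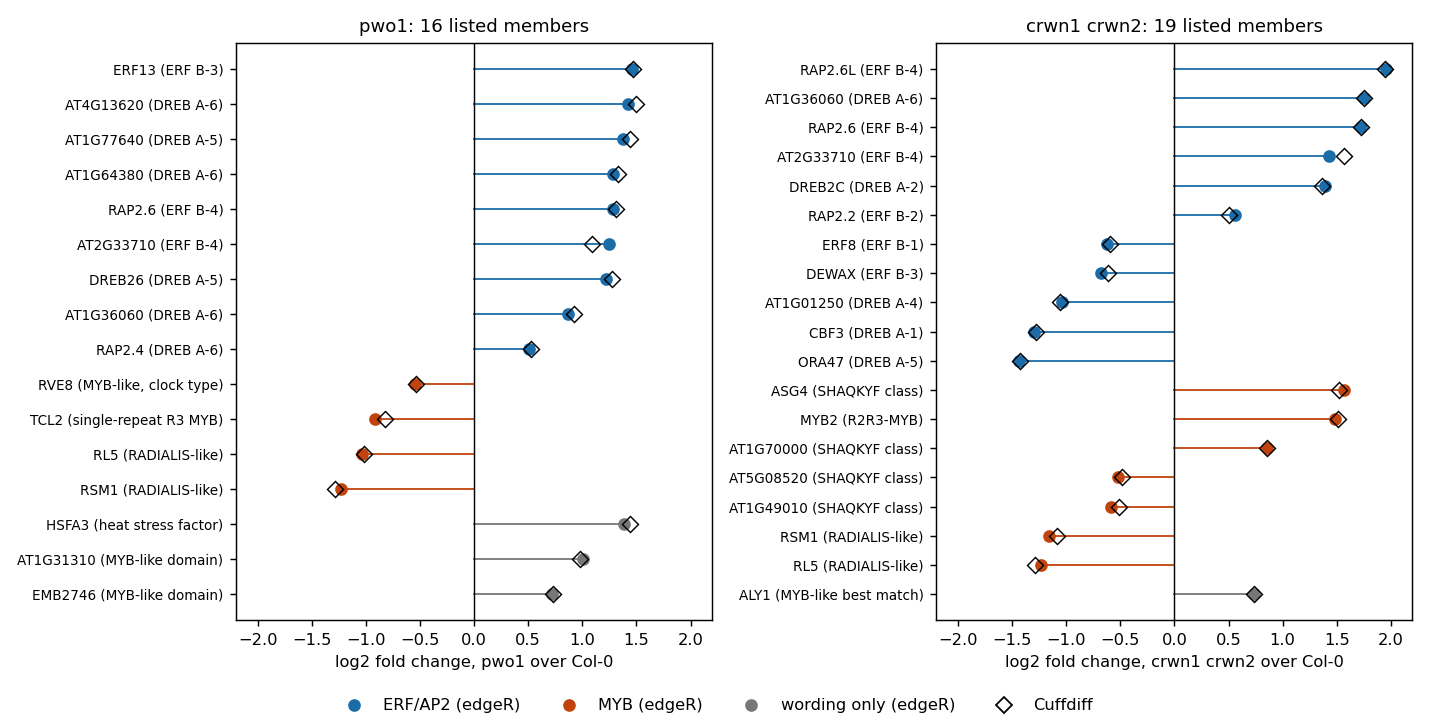
Log2 fold change of every listed member in pwo1 (left, 16 genes) and in crwn1 crwn2 (right, 19 genes), with filled points for edgeR coloured by family and open diamonds for Cuffdiff. In pwo1 the 9 ERF/AP2 members lie above 0 and the 4 MYB members below it, whereas in crwn1 crwn2 both families lie on both sides.

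The DREB A-6 subfamily gave the most members in pwo1. On the log2 scale of the authors' deposited table, RAP2.4 stood at 0.51, AT1G36060 at 0.87, AT1G64380 at 1.29 and AT4G13620 at 1.42. These 4 were all higher, among 9 protein-coding genes that the reference's notes place in A-6. The note of RAP2.4 words its group differently, and a second wording was added to the search to count it. Notes in still other wordings were not sought. Of all protein-coding genes, 4.38% were listed for pwo1, and no subfamily was tested against this share. RAP2.4 acts in responses to light, ethylene and drought, and its p was the largest of the members in pwo1 (edgeR p = 0.00326 in the authors' deposited table). AT1G36060 had the smallest p of the group (edgeR p = 5.20e-05 in the authors' deposited table). From the A-5 subfamily, DREB26 was at 1.22 and AT1G77640 at 1.37 in the authors' deposited table, 2 of 15 genes of that subfamily.

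The ERF branch gave 3 members in pwo1. ERF13, of subfamily B-3, had the largest rise among the members, at 1.46 in the authors' deposited table (edgeR p = 2.26e-04), a 2.75-fold change. RAP2.6, which responds to abscisic acid, jasmonate and wounding, was at 1.28 in the authors' deposited table (edgeR p = 6.02e-04). AT2G33710, of the same B-4 subfamily, was at 1.25 by edgeR and 1.09 by Cuffdiff in the authors' deposited table, the widest gap between the tools among members in pwo1. Across the 118 protein-coding genes that the reference's notes place in a DREB or ERF subfamily, 10 were listed for pwo1, all of them higher. That is 8.47% of them, beside 4.38% of all 27562 protein-coding genes listed in that comparison, and the difference between these shares was not tested. The tenth gene is TINY of subfamily A-4, whose table description was not used here; it was at 0.81 in the authors' deposited table.

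The MYB members lower in pwo1 were MYB-related proteins, with no R2R3 protein among them. The fall was not particular to this type. The R2R3 genes MYB47, MYB76 and MYB3, not matched by the rule, were lower in pwo1 too, at -1.92, -1.37 and -0.94. RSM1 and RL5, of the RADIALIS-like group with a single MYB repeat, stood at -1.23 and -1.04 in the authors' deposited table. RSM1 acts in early seedling growth. TCL2, a single-repeat MYB that represses trichome formation, was at -0.92 in the authors' deposited table (edgeR p = 9.37e-06). RVE8, a clock protein that activates evening genes, stood at -0.55 in the authors' deposited table (edgeR p = 0.00242). TCL2 stands in a tandem array, and the adjacent gene ETC2, which also encodes a single-repeat MYB repressor of trichomes, was at -0.93 in the authors' deposited table. Reads common to such related neighbours could be split by the counting, which is not described in the sources used here.

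The 3 members in pwo1 matched by wording only were all higher. The heat stress factor HSFA3, whose description names DREB2A as its regulator, was at 1.39 in the authors' deposited table with the smallest p of any member in pwo1 (edgeR p = 4.78e-06). EMB2746, annotated as a hydrolase with a MYB-like domain, was at 0.72 in the authors' deposited table. AT1G31310, annotated with a MYB-like domain and no further function, was at 1.01 in the authors' deposited table. HSFA3 overlaps its annotated neighbour, and if counting ignored the strand the reads of both would be mixed.

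In crwn1 crwn2, 19 members were listed, and neither family kept to a direction. Of 11 ERF/AP2 members 6 were higher and 5 lower, and of 7 MYB members 3 were higher and 4 lower. Among all 1935 genes listed for crwn1 crwn2, 56.5% were higher, and 43.5% were lower; the 10 of 19 members that were higher make a similar share, 52.6%. The median of all 19 on the log2 scale was 0.56 by the authors' deposited table, beside 0.53 for all listed genes. This median rests on the wording of the rule, since it was -0.59 with wider wording and 0.017 with symbols and reference notes searched too. At least 2-fold changes were seen for 12 of the 19, against 40.4% of all listed genes.

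Among the ERF/AP2 members in crwn1 crwn2, the largest rises were those of 3 B-4 ERFs and AT1G36060. RAP2.6L, known from wounding and shoot regeneration, was at 1.96 in the authors' deposited table (edgeR p = 9.75e-10), a 3.88-fold change and the smallest p of any member. RAP2.6 was at 1.72 and AT2G33710 at 1.43 in the authors' deposited table. These 3 of 7 genes of subfamily B-4 were all higher, and the other 4 were not listed. Of all protein-coding genes, 6.91% were listed for crwn1 crwn2, and the subfamily was not tested against this share. The gene next to RAP2.6L is PBS3, of salicylic acid synthesis, which was at 1.99 in the authors' deposited table. AT1G36060, of DREB A-6, was at 1.75 in the authors' deposited table (edgeR p = 3.30e-07) and was the one A-6 gene listed for crwn1 crwn2.

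Other ERF/AP2 genes that rose in crwn1 crwn2 were DREB2C and RAP2.2. DREB2C, a heat and drought regulator of subfamily A-2, was at 1.39 in the authors' deposited table (edgeR p = 5.79e-04). RAP2.2, which acts in the response to low oxygen, was at 0.56 in the authors' deposited table (edgeR p = 0.00132). Its relative EBP of the same subfamily B-2, whose table description was not used here, was at 1.21 in the authors' deposited table. Of 5 genes of B-2, 2 were thus listed, both higher, beside 6.91% of all protein-coding genes listed for crwn1 crwn2.

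The ERF/AP2 genes lower in crwn1 crwn2 came from 5 subfamilies, 1 gene each. CBF3, also called DREB1A, is a cold regulator among the CBF factors that the CBF regulon is named after. It was at -1.30 in the authors' deposited table (edgeR p = 0.0026). ORA47, which activates jasmonate synthesis, stood at -1.44 in the authors' deposited table and had the largest fall of any member (edgeR p = 1.76e-05). AT1G01250 of DREB A-4 was at -1.04, DEWAX, a repressor of wax synthesis, at -0.68, and ERF8 of subfamily B-1 at -0.63 in the authors' deposited table. CBF3 and ORA47 overlap other annotated genes, and CBF3 has close tandem relatives, so their values are uncertain. Across the 118 genes with a named subfamily, 12 were listed for crwn1 crwn2, 7 higher and 5 lower. That is 10.2% of them, beside 6.91% of all protein-coding genes, and this difference was not tested either.

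**Figure D2:**
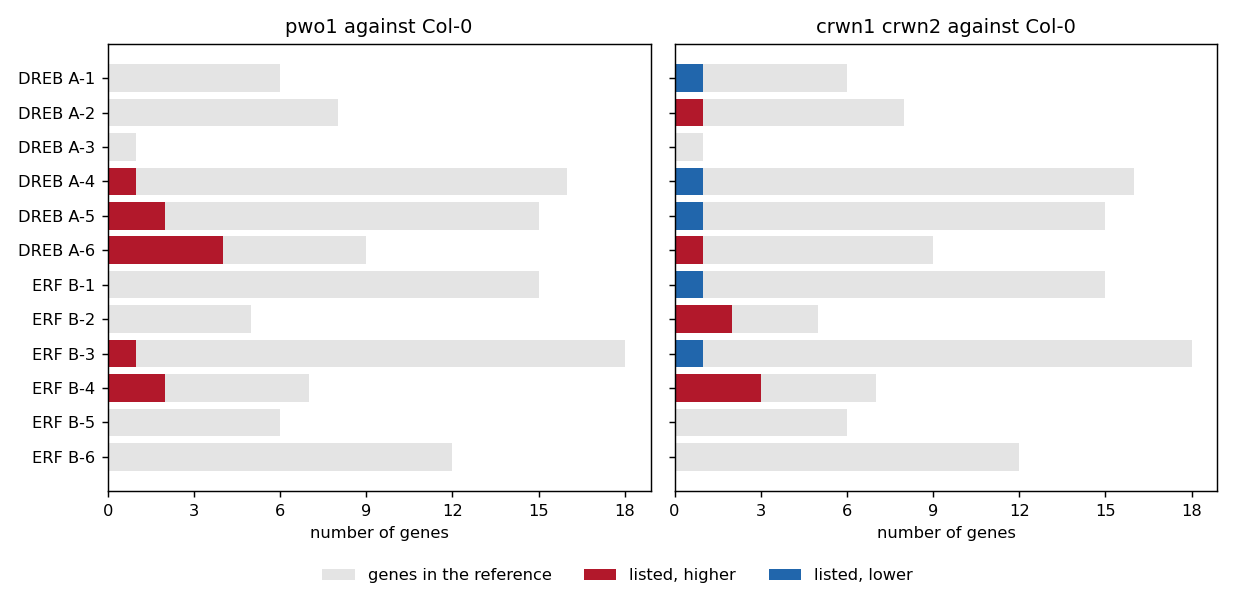
Number of protein-coding genes in each DREB (A) and ERF (B) subfamily named in the reference's notes (grey bars), with those listed higher (red) and lower (blue) in each mutant. In pwo1, 4 of 9 A-6 genes and 2 of 7 B-4 genes were higher and none of any subfamily was lower. In crwn1 crwn2, 3 of 7 B-4 genes and 2 of 5 B-2 genes were higher. Of all protein-coding genes, 4.38% were listed for pwo1 and 6.91% for crwn1 crwn2.

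Among the MYB members in crwn1 crwn2, ASG4 and MYB2 rose most. ASG4, a clock-type protein with a SHAQKYF motif in its MYB-like domain, was at 1.57 in the authors' deposited table (edgeR p = 4.95e-05). MYB2, an R2R3 protein of salt and dehydration responses, was at 1.48 in the authors' deposited table, with a Cuffdiff p of 0.00635 that was the largest of any member. AT1G70000, also of the SHAQKYF class, was at 0.86 in the authors' deposited table, while AT1G49010 and AT5G08520 of that class were at -0.59 and -0.52. RSM1 and RL5 were lower again, at -1.16 and -1.24 in the authors' deposited table. ALY1, matched by wording only and related to the always early gene of Drosophila, was at 0.74 in the authors' deposited table. ASG4 and AT5G08520 overlap other annotated genes.

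**Figure D3:**
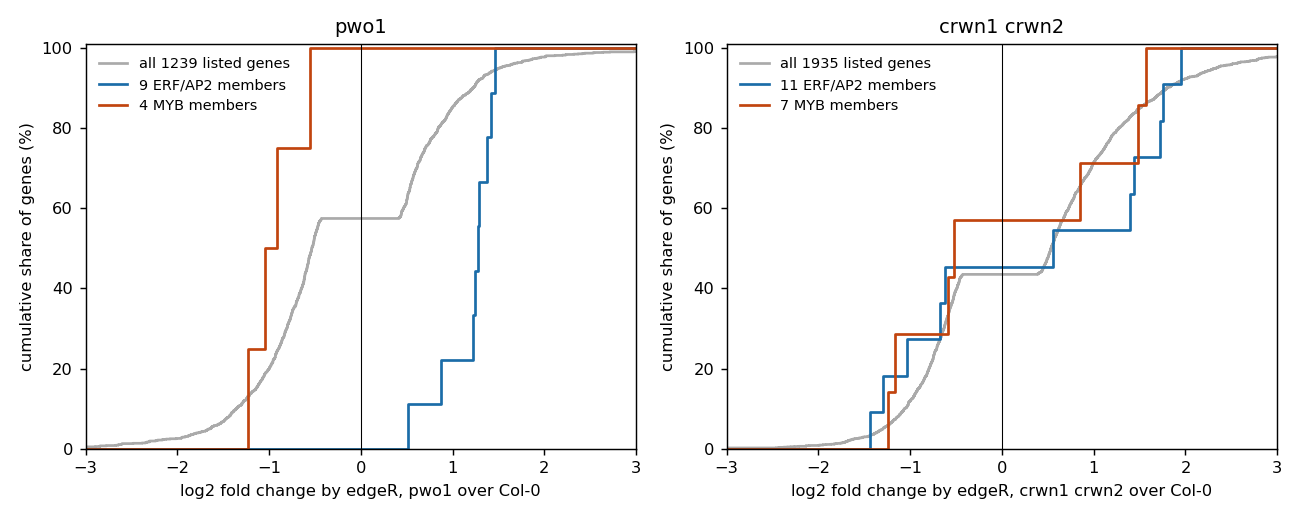
Cumulative share of genes (%) by log2 fold change for all listed genes (grey), ERF/AP2 members (blue) and MYB members (orange) in pwo1 (left) and crwn1 crwn2 (right); the axis ends at 3 either way, beyond which a few listed genes lie. In pwo1 the curves of the 9 ERF/AP2 and 4 MYB members lie on opposite sides of 0, and in crwn1 crwn2 those of the 11 and 7 members cross 0 as that of all listed genes does.

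The tables had 5 members in common, 31.2% of the pwo1 members and 26.3% of the crwn1 crwn2 members. Over all listed genes, 508 were in both, 41% of the pwo1 table and 26.3% of the crwn1 crwn2 table, so the shares of the members were no higher. Both comparisons use the same Col-0 samples, so their values are given side by side and not as independent evidence. RAP2.6 was at 1.28 in pwo1 and 1.72 in crwn1 crwn2, and AT2G33710 was at 1.25 and 1.43, in the authors' deposited tables. AT1G36060 was at 0.87 in pwo1 and 1.75 in crwn1 crwn2 in the authors' deposited tables. RSM1 was at -1.23 and -1.16, and RL5 at -1.04 and -1.24, in the authors' deposited tables. Whether any of these differed between the mutants was not tested. The DREB26, AT1G77640, AT1G64380, AT4G13620, RAP2.4 and ERF13 genes were listed for pwo1 and not for crwn1 crwn2, which does not show that they differ between the mutants.

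The stretches of 250 bases before the annotated start of these 5 genes are printed because they are the members listed in both mutants. They were read 5′ to 3′ on each gene's strand from the RefSeq genome TAIR10.1, an update of the authors' build TAIR10 that keeps its nuclear chromosomes, by the annotation of that reference. RAP2.6 is at chr1:16263555-16263804 on the plus strand, AT1G36060 at chr1:13456337-13456586 on the minus strand and AT2G33710 at chr2:14260905-14261154 on the minus strand. RL5 is at chr1:6757421-6757670 on the minus strand and RSM1 at chr2:9259261-9259510 on the plus strand. Capitals mark matches, on either strand, to GCCGCC (the GCC box), CCGAC (the core of the dehydration-responsive element), TTGAC (the core of the W box, bound by WRKY proteins), AAATATCT (the evening element), ACGTG (the core of the abscisic acid response element) and CACGTG (the G box). Every CACGTG also holds ACGTG.
RAP2.6: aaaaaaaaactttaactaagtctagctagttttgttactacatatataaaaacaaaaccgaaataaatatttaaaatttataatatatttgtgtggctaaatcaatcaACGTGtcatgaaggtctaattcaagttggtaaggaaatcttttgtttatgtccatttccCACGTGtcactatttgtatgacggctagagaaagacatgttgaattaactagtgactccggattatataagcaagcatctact
AT1G36060: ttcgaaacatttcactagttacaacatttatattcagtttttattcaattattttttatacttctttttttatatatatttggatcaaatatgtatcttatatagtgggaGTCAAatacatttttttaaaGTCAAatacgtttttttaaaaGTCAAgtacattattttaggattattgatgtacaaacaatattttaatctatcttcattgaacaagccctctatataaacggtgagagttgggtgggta
AT2G33710: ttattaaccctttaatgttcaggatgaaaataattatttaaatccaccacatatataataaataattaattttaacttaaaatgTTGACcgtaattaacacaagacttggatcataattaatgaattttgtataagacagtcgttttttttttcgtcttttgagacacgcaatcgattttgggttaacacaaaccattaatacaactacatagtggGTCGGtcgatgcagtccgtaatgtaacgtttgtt
RL5: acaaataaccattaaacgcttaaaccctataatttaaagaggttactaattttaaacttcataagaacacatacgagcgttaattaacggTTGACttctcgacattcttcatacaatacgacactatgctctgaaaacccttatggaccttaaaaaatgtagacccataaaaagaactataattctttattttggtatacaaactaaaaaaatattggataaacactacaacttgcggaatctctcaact
RSM1: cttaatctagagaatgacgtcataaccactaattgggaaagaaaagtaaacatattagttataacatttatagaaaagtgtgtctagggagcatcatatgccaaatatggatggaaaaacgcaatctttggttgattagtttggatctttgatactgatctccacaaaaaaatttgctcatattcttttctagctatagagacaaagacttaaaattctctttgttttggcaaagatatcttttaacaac

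RAP2.6 held a G box 83 bases before its start and a further ACGTG core at 142 bases. AT1G36060 held 3 W box cores, at 140, 120 and 99 bases before its start, each in the reverse orientation. AT2G33710 held a dehydration-responsive core at 34 bases and a W box core at 166 bases, RL5 a W box core at 160 bases, and RSM1 none of the motifs. Over all 30 members, TTGAC was found in 14 windows, against 44.9% of the 27443 windows of that length before protein-coding genes. ACGTG was found in 6 of 30 members and 22.9% of all windows, and CCGAC in 1 of 30 and 12% of all windows. The evening element was found in 4 of 30 members and 4.79% of all windows, and CACGTG in 3 of 30 and 6.49%. GCCGCC was found in 0 of the 30 windows and in 1.87% of all windows. These matches are descriptions of letters in a short window, not of binding.

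The genes adjacent to the members were also looked up. In pwo1, 3 of the 16 members had an immediate protein-coding neighbour that was listed too, beside 17.4% of all listed genes. In crwn1 crwn2 this held for 5 of 19 members, beside 19.7% of all listed genes. RSM1 and its neighbour AT2G21640 went opposite ways, at -1.23 and 1.02 in pwo1 and at -1.16 and 1.80 in crwn1 crwn2, in the authors' deposited tables. DREB2C and its neighbour PYL6, of the abscisic acid receptor family, were both higher in crwn1 crwn2, at 1.39 and 2.34 in the authors' deposited table.

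Genes that act with these factors were taken from 7 lists with 94 genes in all, chosen with results of these data known. Beside each count stand the shares of all protein-coding genes listed, 4.38% for pwo1 and 6.91% for crwn1 crwn2, and no list was tested against them. Of 18 genes chosen for the list of the CBF regulon and its regulators, 7 were lower and 0 higher in crwn1 crwn2, where CBF3 was lower too. Whether each of these genes answers to CBF factors was not tested. COR15A and COR15B, whose products protect chloroplast membranes in the cold, were at -1.99 and -2.46, and COR413IM1 at -2.30, in the authors' deposited table. KIN2 was at -1.73, the galactinol synthase gene GolS2 at -1.29, RD29A at -1.24 and the dehydrin gene ERD10 at -0.78 in the authors' deposited table. The edgeR p of GolS2 was 0.00559. By Cuffdiff these genes were lower too, but by less. KIN2 was at -1.11 by Cuffdiff, COR15A at -1.71, COR15B at -2.11 and COR413IM1 at -2.05. GolS2 was at -1.22 by Cuffdiff, RD29A at -1.12 and ERD10 at -0.71. In pwo1, where CBF3 was not listed, 3 of the 18 were lower and 0 higher, namely GolS2 at -1.69, COR413IM1 at -1.23 and COR15B at -1.10 in the authors' deposited table. COR15B overlaps another annotated gene and lies beside COR15A.

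Of 23 genes of ethylene synthesis and signalling, 4 were higher and 1 lower in crwn1 crwn2, beside 6.91% of all protein-coding genes listed there. The ACC synthase genes ACS7 and ACS2, for the step that commits to ethylene, stood at 2.39 and 2.13 in the authors' deposited table, and ACS6 of the same family was at -0.89. The receptor gene ERS1 was at 0.52 and CTR1, the kinase that represses the pathway, at 0.53 in the authors' deposited table. The edgeR p was 0.00575 for ACS6 and 0.00419 for ERS1, near 0.00585, the largest listed for crwn1 crwn2. In pwo1 the 1 listed gene was EIN3, the transcription factor that activates ERF genes downstream of ethylene, at -0.47 in the authors' deposited table. A link between EIN3 and the listed ERF/AP2 members, which were higher, was not tested. Of 8 defence genes linked to the GCC box, the authors' deposited table for crwn1 crwn2 held PR4 alone, with 1.29, and 0 were listed for pwo1. ERS1 overlaps another annotated gene.

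Of 16 phenylpropanoid and lignin genes, a pathway under R2R3 MYB control, 5 were higher and 0 lower in crwn1 crwn2, beside 6.91% of all protein-coding genes listed there. Of all genes listed for crwn1 crwn2, 56.5% were higher. The first-step enzymes PAL1 and PAL2 were at 1.04 and 0.56, 4CL3 at 1.16, CAD4 at 0.92 and OMT1 at 0.55 in the authors' deposited table. In pwo1, 4CL3 and CAD4 were at 0.81 and 0.49 and FAH1, of sinapate and syringyl lignin synthesis, at -0.75 in the authors' deposited table. Of 14 wax genes, the alcohol-forming reductase gene CER4 was listed for pwo1, at 1.40, and the alkane synthesis gene CER1 for crwn1 crwn2, at -0.70, in the authors' deposited tables. None of the 10 genes chosen for the MYB, bHLH and WD40 epidermal network was listed for either mutant; the list does not hold TCL2 and ETC2, repressors of the same network that were lower in pwo1. Of 5 iron genes of the MYB10 and MYB72 pathway, NAS2 and BGLU42 were at 2.12 and 0.51 in pwo1 and NAS4 at 1.18 in crwn1 crwn2 in the authors' deposited tables, while MYB10 and MYB72 themselves were not listed.

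**Figure D4:**
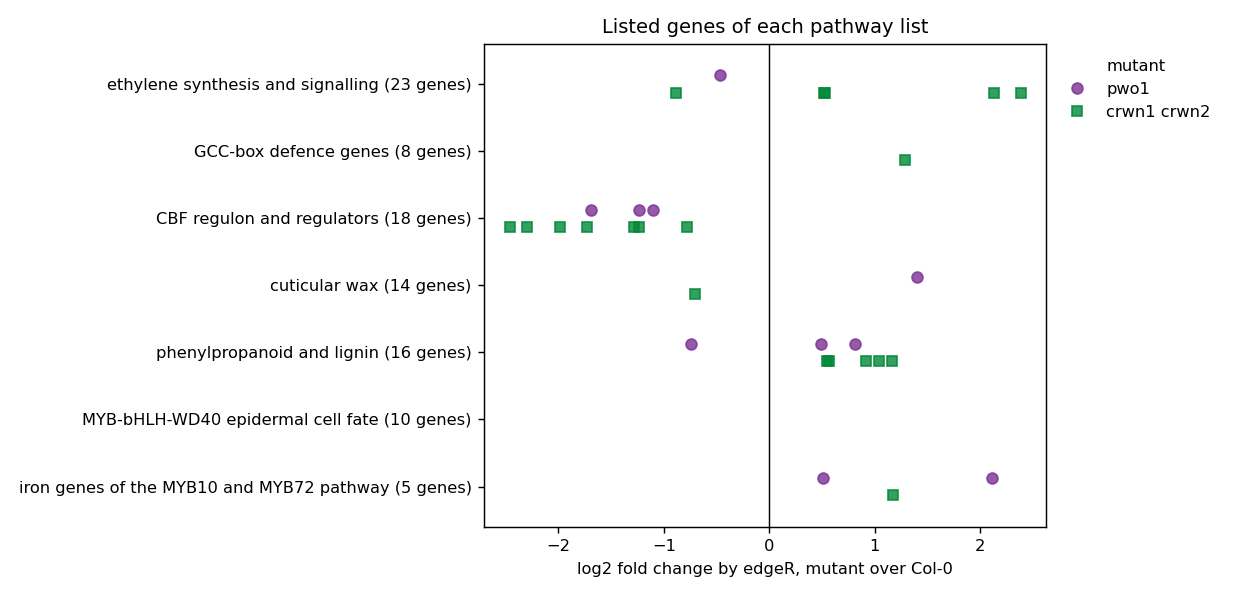
Log2 fold change by edgeR of each listed gene of the 7 pathway lists in pwo1 (circles) and crwn1 crwn2 (squares), with the size of each list in brackets. The 7 listed genes of the CBF list in crwn1 crwn2 and the 3 in pwo1 all lie below 0, and the 5 listed phenylpropanoid genes in crwn1 crwn2 all lie above 0.

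The authors' tables carry unadjusted p-values as far as their values show, so an upper bound of the Benjamini-Hochberg adjusted p was computed from the edgeR p-values over 38094 reference genes. This bound was under 0.05 for 13 of 16 members in pwo1, beside 76.3% of all listed genes, and for 16 of 19 in crwn1 crwn2, beside 82.8%. Both tools gave p under 0.001 for 11 of 16 members in pwo1, beside 65.5% of all listed genes, and for 12 of 19 in crwn1 crwn2, beside 65.7%. The members over the adjusted bound were DREB26 (0.0504), RVE8 (0.0826) and RAP2.4 (0.104) in pwo1, and CBF3 (0.0594), AT1G01250 (0.0637) and ERF8 (0.0892) in crwn1 crwn2. These 6 calls are not shown to pass an adjusted threshold of 0.05.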

How the data were processed

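RNA-seq of 14-day-old seedlings was deposited as 2 tables of the authors' own comparisons, pwo1 and crwn1 crwn2 against Col-0. Per the file headers, the deposited values are log2 fold changes and p-values from edgeR and from Cuffdiff. The submitters' processing notes name TAIR10 as the build and, among other tools, TopHat2 2.0.12, HTSeq 0.6.1, edgeR 3.3 and Cuffdiff 2.2.1. Their roles, the normalization, the strand setting, the filter on low counts and the listing threshold are not stated in the sources used here. No values per library were used, so no model was refitted and no depth is given. The call was the authors' listing, as planned. For each genotype 3 biological replicates are stated.

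Members were found by the words in each description (Python 3.11.15, pandas 2.3.3). The description of 60 rows for pwo1 and 99 rows for crwn1 crwn2 was not used here, so members among them could not match. The members and lists were chosen with earlier results of these data known. Every member is named, as is every listed gene of the pathway lists, from which 1 gene is not reported here. Names, neighbours, overlaps, subfamily notes and windows of 250 bases came from RefSeq TAIR10.1, in which all 30 members were found. The adjusted bound treats genes that were not listed as having larger p-values. Its calculation was checked on simulated p-values listed by a cut on p alone. A listing by both tools was not simulated. Counts and medians are descriptions, with no test of the members as a list. Alternatives were Cuffdiff's fold changes, p under 0.001 in both tools, a 2-fold threshold, the adjusted bound under 0.05, wider wording and leaving out genes that overlap another.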

Additional observations from a re-analysis of the deposited data

How the results depend on the processing

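No paired analysis was possible because the deposited tables hold no values per library, and for the same reason no replicate could be left out. By Cuffdiff's fold change all 35 member values had the same sign, and the members' medians were 1.03 in pwo1 and 0.50 in crwn1 crwn2. With p under 0.001 in both tools, 23 of the 35 calls were kept and 12 lost; MYB members lower in pwo1 came to 2 and the median to 1.28, and in crwn1 crwn2 12 members were left, with 2 ERF/AP2 and 2 MYB members lower and a median of 1.12. With a 2-fold threshold, 12 calls were again lost; 2 MYB members were lower in pwo1 (median 1.28), and crwn1 crwn2 had 12 members, 3 ERF/AP2 and 2 MYB members lower and a median of 1.41. With the adjusted bound under 0.05, the medians were 1.25 and 0.80, and 2 ERF/AP2 members were lower in crwn1 crwn2. Without genes that overlap another, the medians were 1.01 and 0.74, and 3 ERF/AP2 members were lower in crwn1 crwn2. The wider wording added 3 ERF/AP2 genes lower in pwo1 (median 0.72) and turned the median in crwn1 crwn2 to -0.59; the cause was not tested beyond the genes added, which were all lower. With reference notes and symbols searched too, an alternative chosen after seeing the data, pwo1 had 1 ERF/AP2 gene lower, 1 MYB gene higher and 9 lower (median 0.77), and crwn1 crwn2 had 30 genes, 7 MYB genes higher and 10 lower (median 0.017). The ERF/AP2 members higher in pwo1, 9 by the main call, came to 6 with p under 0.001 in both tools. They came to 7 with the 2-fold threshold and 7 with the adjusted bound under 0.05. The count stayed at 9 by Cuffdiff's fold change, with the wider wording and without genes that overlap another. With reference notes and symbols searched too it was 10. Precision is limited by the missing depth and spread.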

Other observations

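Further ERF/AP2 and MYB genes that the rule did not match were listed, 10 in pwo1 and 13 in crwn1 crwn2. Most have descriptions in other words, and the descriptions of TINY and EBP were not used here. They were picked after their values were seen. In the reference 6 genes carry a RADIALIS-like name, and 4 were listed as lower in each mutant, with 0 higher. Of all protein-coding genes, 4.38% were listed for pwo1 and 6.91% for crwn1 crwn2. Of the listed genes, 57.5% and 43.5% were lower, and the group was not tested against these shares. Besides RSM1 and RL5 these were RL4, at -1.28 in pwo1 and -1.37 in crwn1 crwn2, and RL6, at -1.07 and -1.42, in the authors' deposited tables; both mutants were compared with the same Col-0 samples. RL1 and RL3 were not listed. The AP2-type genes SNZ and TOE3, floral repressors whose transcripts are targets of the microRNA miR172, were at -0.78 and -1.20 in pwo1 and at -0.95 and -1.54 in crwn1 crwn2 in the authors' deposited tables. RAP2.7, of the same group, was at -0.79 in pwo1 in the authors' deposited table. TOE3 overlaps another annotated gene.

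Among R2R3 MYB genes, MYB47 was at -1.92 in pwo1 and -1.71 in crwn1 crwn2, and MYB76, a regulator of aliphatic glucosinolates, was at -1.37 and -1.92, in the authors' deposited tables. MYB3, a repressor of phenylpropanoid genes, was at -0.94 in pwo1 in the authors' deposited table. MYB50, MYB112 and MYB13 were at 1.86, 1.20 and 0.85, and the related MYB73 and MYB70 at -1.10 and -0.63, in the authors' deposited table for crwn1 crwn2. MYB73 overlaps another annotated gene. The clock-type gene RVE2 was at 1.004 in pwo1 and 0.64 in crwn1 crwn2 in the authors' deposited tables.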
